A study of Arabidopsis thaliana with 6 samples.

Results

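Phenolamides and flavonols are phenolic compounds of the pollen of *Arabidopsis*, and 5 genes of their synthesis are described here in anthers of *ice1-2* and Col-0. The genes were fixed by name and identifier: *TSM1* (AT1G67990), *SHT* (AT2G19070), *CYP98A8* (AT1G74540), *CYP98A9* (AT1G74550) and *UGT79B6* (AT5G54010), 5 of the 32833 genes listed in each library. All 5 passed the filter on low values, which left 18858 genes. The mutant *ice1-2* is homozygous for a T-DNA insertion in an exon of *ICE1*, the gene of a basic helix-loop-helix (bHLH) transcription factor of cold response and stomatal development, and it was compared with wild-type Col-0, its background. Each genotype had 3 libraries, A, B and C, from plants grown in a greenhouse with 16 hours of light at 22 °C. The labels give anther stages 9 to 13 and the paper the same numbers as flower stages, so each library pools anthers of several stages. A single *ice1-2* allele was sequenced, without the complemented line.

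In the tapetum, the nurse cell layer that lines the locule, hydroxycinnamic acids are joined to spermidine, and the resulting tri-hydroxycinnamoyl spermidines are laid down on the pollen coat. SHT is the BAHD acyltransferase that makes the spermidine conjugate. CYP98A8 and CYP98A9 are cytochromes P450 that hydroxylate its phenolic rings, and TSM1 is the cation-dependent O-methyltransferase that methylates them. Pollen also stores flavonols, such as kaempferol and quercetin, as sugar conjugates. UGT79B6 adds the further sugar that gives pollen its flavonol diglycosides.

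The DNA just before each transcript start is shown because ICE1 is a bHLH factor, because this class of factor binds the E-box (the letters CANNTG, read on both strands), and because 4 of the 5 genes varied together across libraries. Each sequence runs 5′ to 3′ on the gene's own strand up to the base before the first base of the annotated transcript, from RefSeq TAIR10.1, with E-boxes in capitals. For *CYP98A8* the annotated transcript starts at 28013309, 129 bases inside the start of the gene record, so the end of its window lies within that record but outside the transcript. For *TSM1* only the 142 bases that separate it from its neighbour *CCOAMT* are given, and 250 bases for each of the others. The windows are chr1:25489313-25489454 on the plus strand for *TSM1*, chr2:8261986-8262235 on the minus strand for *SHT*, chr1:28013059-28013308 on the plus strand for *CYP98A8*, chr1:28015795-28016044 on the plus strand for *CYP98A9* and chr5:21921226-21921475 on the minus strand for *UGT79B6*.
TSM1: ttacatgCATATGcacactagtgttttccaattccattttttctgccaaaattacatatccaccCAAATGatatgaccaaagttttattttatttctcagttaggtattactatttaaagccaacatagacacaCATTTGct
SHT: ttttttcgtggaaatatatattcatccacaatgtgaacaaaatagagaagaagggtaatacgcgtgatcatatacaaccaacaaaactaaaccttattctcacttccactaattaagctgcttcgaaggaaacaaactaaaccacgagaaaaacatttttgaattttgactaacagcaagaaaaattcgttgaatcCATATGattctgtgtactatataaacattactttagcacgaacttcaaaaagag
CYP98A8: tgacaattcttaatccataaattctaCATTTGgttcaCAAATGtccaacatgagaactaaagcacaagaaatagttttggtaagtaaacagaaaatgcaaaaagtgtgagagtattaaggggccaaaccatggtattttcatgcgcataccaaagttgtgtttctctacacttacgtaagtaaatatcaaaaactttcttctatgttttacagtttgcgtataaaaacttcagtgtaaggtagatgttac
CYP98A9: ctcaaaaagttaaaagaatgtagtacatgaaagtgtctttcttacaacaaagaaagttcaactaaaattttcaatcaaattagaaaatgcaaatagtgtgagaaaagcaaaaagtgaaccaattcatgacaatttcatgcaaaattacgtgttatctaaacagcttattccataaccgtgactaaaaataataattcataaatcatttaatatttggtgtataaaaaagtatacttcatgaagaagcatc
UGT79B6: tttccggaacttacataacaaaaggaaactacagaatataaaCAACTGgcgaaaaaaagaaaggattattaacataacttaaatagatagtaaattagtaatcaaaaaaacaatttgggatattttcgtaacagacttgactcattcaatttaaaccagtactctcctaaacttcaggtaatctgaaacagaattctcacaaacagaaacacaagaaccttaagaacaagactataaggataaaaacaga
The window of *TSM1* held 3 E-boxes, that of *CYP98A8* 2, those of *SHT* and *UGT79B6* 1 each, and that of *CYP98A9* 0. Of 27443 windows of 250 bases before the genes of this reference, 55.3% held an E-box, with a median of 1. None of the 5 windows held the G-box CACGTG, an E-box that 6.5% of all windows held. The longest run that 2 of the windows of 250 bases shared was agaaaatgcaaa, which starts 161 bases before *CYP98A8* and 169 bases before *CYP98A9*. A match of letters is a description and does not show that a factor binds there.

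Of the 5 genes, 4 lie near a close copy of their family. *TSM1* has 5 exons on chromosome 1 from 25489455 to 25490867, just downstream of *CCOAMT*, whose protein is 77.2% identical to the TSM1 protein. *CYP98A8* (chromosome 1, gene record from 28013180 to 28015049) and *CYP98A9* (28016045 to 28017711) each have 1 exon and stand in tandem, with 995 bases between them and 70.6% protein identity. *SHT* has 2 exons on the minus strand of chromosome 2 from 8260038 to 8261985, and its closest family member among those compared was *HCT*, with 38.9% identity. *UGT79B6* has 1 exon on the minus strand of chromosome 5 from 21919593 to 21921225, and *UGT79B9*, 73.8% identical, lies 2367 bases from it. Between these closest pairs, the longest identical stretch of transcript was 26 bases for *TSM1* and *CCOAMT*, 23 for *CYP98A8* and *CYP98A9*, 18 for *SHT* and *HCT* and 38 for *UGT79B6* and *UGT79B9*, each well under the read length. How strand was treated in the counting was not stated. On the opposite strand, a long non-coding RNA (AT1G74545, 0.352 to 3.11 FPKM) covers the whole *CYP98A8* transcript, another (AT1G09487, 3.08 to 12.2 FPKM) covers 67.8% of *CYP98A9*, and AT2G19060 (0 to 0.604 FPKM) covers 33.2% of *SHT*. *CYP98A9* also overlaps AT1G74560 (27.7 to 50.0 FPKM) over 7.7% of its length, so antisense reads in its values cannot be told apart from its own.

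The measure throughout is FPKM, fragments per kilobase of transcript per M mapped fragments, with 1 value per gene and library. Steps between low values give a rough depth of 5.9, 19.9 and 14.5 M fragments (M for mega) in *ice1-2* A, B and C, and of 24.4, 27.4 and 22.4 M in Col-0 A, B and C. Since no source states that replicate libraries were made from different plants, p-values measure only the spread between libraries, which may be technical. *ICE1* (AT3G26744) was at 12.9, 15.4 and 21.5 FPKM in the libraries labelled *ice1-2* A, B and C, and at 12.7, 9.25 and 14.0 FPKM in Col-0 A, B and C. Its log2 fold change was 0.44 (adjusted p = 0.323 from limma). The paper describes *ice1-2* as a null mutant and reports very low *ICE1* expression in its inflorescences by qRT-PCR, which these anther values do not show. The *ICE1* level does not check the labels, because the files hold 1 value for the whole gene and not for the part beyond the insertion. Col-0 A stood apart from Col-0 B and C in tapetum genes. All 14 listed tapetum markers were higher in Col-0 A than in both other Col-0 libraries, 13 of them by more than 2 times, so the results for the 5 genes are given with and without that library. In bulk anthers, fewer cells of a type and less RNA per cell cannot be told apart.

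With all 6 libraries, none of the 5 transcripts passed the test between *ice1-2* and Col-0, whereas 4 of them differed by 6.44-fold to 15.3-fold between the highest and the lowest Col-0 library. *TSM1*, *SHT*, *CYP98A8* and *CYP98A9* were high in all 3 *ice1-2* libraries and in Col-0 A, and low in Col-0 B and C. *UGT79B6* was at a lower level, with less difference between the Col-0 libraries. In the fit without Col-0 A, the 4 phenolamide genes were called higher in *ice1-2*, by 2.96-fold to 8.55-fold on the scale of FPKM + 0.5, and *UGT79B6* was not. That fit leaves out the Col-0 library in which the 4 were high, and its p-values do not account for that choice.

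*SHT*, the acyltransferase at the head of the pathway, showed the widest range. Its FPKM was 102, 249 and 309 in libraries A, B and C of *ice1-2*, against 298, 26.5 and 19.5 in libraries A, B and C of Col-0. Col-0 A lay among the *ice1-2* libraries, the other Col-0 libraries lay below all of them, and *ice1-2* A was the lowest of its genotype. The log2 fold change of *ice1-2* over Col-0, on log2(FPKM + 0.5), was 1.87 (standard error 0.93, 95% interval -0.24 to 3.98, adjusted p = 0.283 from limma). Without Col-0 A it was 3.10 (standard error 0.43, interval 2.13 to 4.06, adjusted p = 0.0105 from limma).

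*CYP98A8* and *CYP98A9*, the tandem hydroxylases, showed the same split of the Col-0 libraries. *CYP98A8* had 85.6, 135 and 166 FPKM in *ice1-2* A, B and C against 254, 39.4 and 44.0 FPKM in the Col-0 libraries. Its log2 fold change was 0.70 (interval -0.77 to 2.17, adjusted p = 0.562 from limma), and 1.57 without Col-0 A (interval 0.89 to 2.24, adjusted p = 0.0316). The next gene on the chromosome, *CYP98A9*, had 115, 155 and 187 FPKM in *ice1-2* A, B and C against 236, 34.7 and 29.7 FPKM in the Col-0 libraries. The log2 fold change of *CYP98A9* was 1.25 (interval -0.33 to 2.82, adjusted p = 0.329 from limma), and 2.20 without Col-0 A (interval 1.602 to 2.796, adjusted p = 0.00721). For both P450 genes Col-0 A was the highest of all 6 libraries and Col-0 B and C were the lowest, so the genotypes overlapped.

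*TSM1*, the methyltransferase, was the most abundant of the 5 in every library. Its FPKM was 351, 385 and 454 in libraries A, B and C of *ice1-2*, and 970.5, 100.2 and 133 in libraries A, B and C of Col-0. The *ice1-2* libraries were close to each other and lay between Col-0 A above and Col-0 B and C below. The mean FPKM of *TSM1* was 397 ± 52.0 in *ice1-2* and 401 ± 493 in Col-0 (SD, n = 3 each), so the means were nearly level, while the log2 fold change, which weighs the high library less, was 0.75 (interval -0.93 to 2.42, adjusted p = 0.59 from limma). Without Col-0 A it was 1.77 (interval 1.17 to 2.36, adjusted p = 0.014 from limma).

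*UGT79B6*, the flavonol glycosyltransferase of pollen, had 10.3, 25.8 and 22.5 FPKM in *ice1-2* A, B and C, and 22.8, 16.9 and 10.7 FPKM in Col-0 A, B and C. The lowest value of each genotype was near the other's, and the libraries were interleaved. Its log2 fold change was 0.17 (interval -0.69 to 1.03, adjusted p = 0.819 from limma) and 0.42 without Col-0 A (interval -0.44 to 1.28, adjusted p = 0.564), and it was -0.11 without Col-0 C and -0.07 without *ice1-2* B. The lowest value came from *ice1-2* A, the shallowest library, in which 7.1% of the FPKM sum lay in ribosomal RNA genes.

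**Figure D1:**
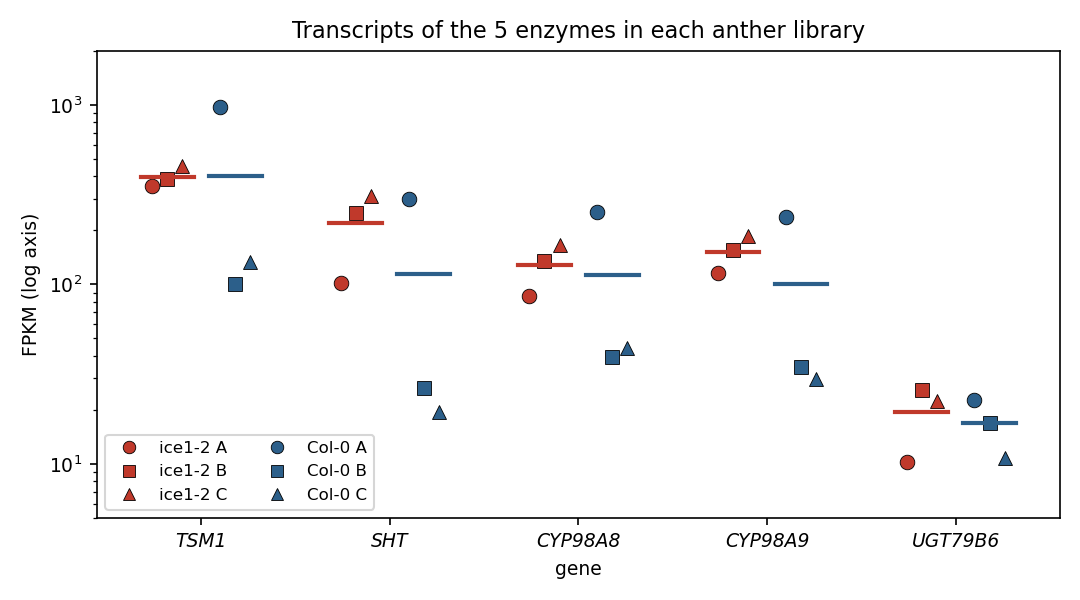
FPKM (log axis) of the 5 genes in each library, with *ice1-2* left of Col-0 for each gene, circles, squares and triangles for libraries A, B and C, and lines for the arithmetic means. For *TSM1*, *SHT*, *CYP98A8* and *CYP98A9* the Col-0 A circle stands at 970.5, 298, 254 and 236 FPKM, within or above the *ice1-2* points, and Col-0 B and C lie below them.

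Of the 5 genes, 0 were called at a log2 fold change beyond 1 and an adjusted p under 0.05 with all libraries in limma, and 0 had an unadjusted p under 0.05. Over all tested genes 1.78% were called and 21.4% had an unadjusted p under 0.05 (20.6% without Col-0 A), which is the share to set beside each such count. In 0 of the 5 did every *ice1-2* library lie above or below every Col-0 library, which 27.2% of the tested genes showed. Without Col-0 A, 4 of the 5 were called higher, against 2.69% of the tested genes called higher in that fit, and the same 4 had every *ice1-2* library above both Col-0 libraries, against 39.6% that did not overlap in either direction. That library was left out as 1 of 6 planned omissions, but only this omission was carried through the text, after its values were seen. Leaving it out removes most of the Col-0 spread of these 4 genes, and the p-values of that fit do not account for the choice. No other single omission led to a call among the 5. The log2 fold changes of all tested genes had a median of 0.15, and -0.02 after median-ratio scaling of the libraries, and that of the 5 was 0.75, or 0.56 after the scaling. With that scaling and without Col-0 A, an alternative added after seeing the data, 3 of the 5 were called and *CYP98A8* was not (log2 fold change 1.34, adjusted p = 0.0544 from limma).

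**Figure D2:**
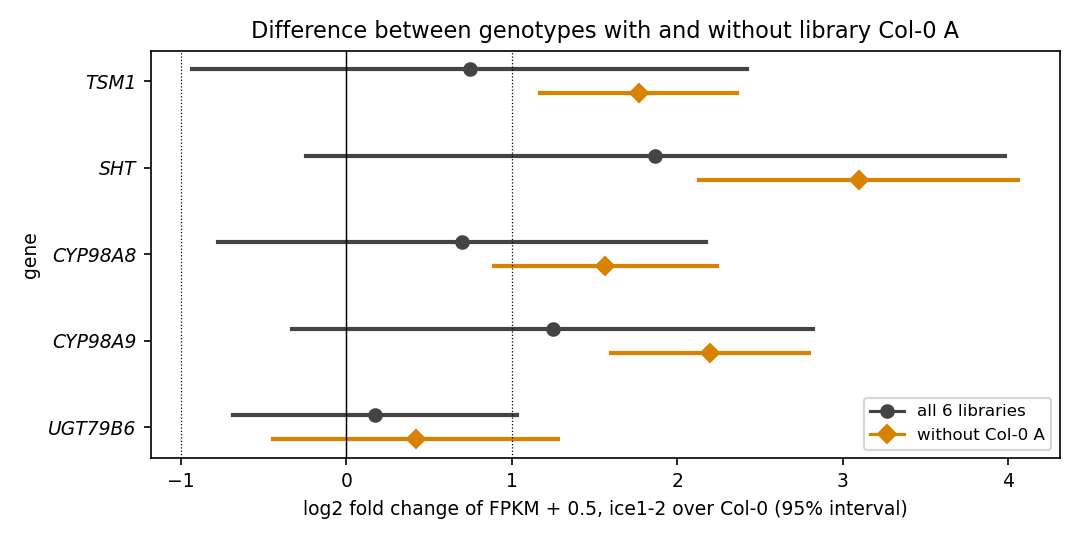
Log2 fold change of FPKM + 0.5, *ice1-2* over Col-0, with 95% intervals from limma, for all 6 libraries (grey circles) and without Col-0 A (orange diamonds). Dotted lines stand at a log2 fold change of 1 in either direction. Without Col-0 A the 4 phenolamide genes lie between 1.57 and 3.10 with intervals above 0, and *UGT79B6* at 0.42 with an interval that spans 0.

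The spread between Col-0 libraries was large for the phenolamide genes and not for most others. The SD of log2(FPKM + 0.5) over Col-0 was 2.14 for *SHT*, 1.78 for *TSM1*, and 1.65 for *CYP98A9*, with *CYP98A8* the smallest of the 4, against a median of 0.24 over all tested genes. The SDs of the 4 were above those of 99.3% to 99.7% of tested genes, and that of *UGT79B6* (0.53) was above 88.7%. Over *ice1-2* the SD was 0.85 for *SHT*, 0.69 for *UGT79B6*, 0.49 for *CYP98A8*, 0.35 for *CYP98A9* and 0.19 for *TSM1*, against a median of 0.27. Put as a ratio, Col-0 A exceeded the mean of Col-0 B and C by 12.9-fold in *SHT*, 8.31-fold in *TSM1*, 7.32-fold in *CYP98A9*, 6.09-fold in *CYP98A8* and 1.65-fold in *UGT79B6*. By the log2 form of that ratio, 28 of the tested genes exceeded *SHT*, 45 exceeded *TSM1*, 53 exceeded *CYP98A9* and 67 exceeded *CYP98A8*, while 1142 exceeded *UGT79B6*.

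Per unit of length, the 5 were ordered in *ice1-2* as *TSM1* (397 ± 52.0 FPKM), *SHT* (219.7 ± 106), *CYP98A9* (152 ± 35.9), *CYP98A8* (129 ± 40.6) and *UGT79B6* (19.5 ± 8.15; SD, n = 3). The ranges of the 3 in the middle of that order overlapped across libraries, although within each library *CYP98A9* was above *CYP98A8*. In Col-0 the levels were 401 ± 493 FPKM for *TSM1*, 115 ± 159 for *SHT*, 112 ± 123 for *CYP98A8*, 100.0 ± 118 for *CYP98A9* and 16.8 ± 6.04 for *UGT79B6* (SD, n = 3), with SDs as large as the means in the first 4. By mean level *TSM1* ranked 179 of the tested genes in *ice1-2* and 190 in Col-0, and *UGT79B6* ranked 5282 and 5456.

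A ratio of 2 genes in the same library does not depend on how the library was scaled. The 6 ratios among the phenolamide genes were computed after their values were seen. *CYP98A8* over *CYP98A9* was 0.743, 0.874 and 0.889 in libraries A, B and C of *ice1-2*, and 1.08, 1.14 and 1.48 in libraries A, B and C of Col-0. By FPKM, *CYP98A9* was thus above *CYP98A8* in each *ice1-2* library and below it in each Col-0 library, Col-0 A included. The values of both genes may hold antisense reads from the genes that overlap them, and this was not tested. *SHT* over *CYP98A8* was 1.19, 1.84 and 1.86 in libraries A, B and C of *ice1-2*, against 1.17, 0.674 and 0.443 in libraries A, B and C of Col-0, a gap between the genotypes that rests on *ice1-2* A and Col-0 A. In the exact permutation test both of these ratios had a two-sided p = 0.1, the smallest that 3 libraries against 3 can give, and p = 0.24 after Benjamini-Hochberg adjustment over the 6 ratios. The other 4 ratios overlapped between genotypes. How often ratios of other gene pairs did not overlap was not computed. *TSM1* over *CYP98A8* was the steadiest, between 2.54 and 4.11 in all 6 libraries.

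Across the 6 libraries, Pearson's r of log2(FPKM + 0.5) between the 4 phenolamide genes lay between 0.92 (*TSM1* and *SHT*) and 0.99 (*SHT* and *CYP98A9*), and between *UGT79B6* and the 4 it lay between 0.52 and 0.71. All these values rest on the same 6 libraries and are given as a description. For the 4 phenolamide genes Col-0 B and C set the low end, while *UGT79B6* was lowest in *ice1-2* A. Among 12555 genes with a mean of at least 5 FPKM, the 3 whose pattern was most like that of each gene were taken. For *SHT* they were *KCS21* and AT1G36150, annotated as a 3-ketoacyl-CoA synthase and a lipid-transfer protein, and *FAP1*, a fatty-acid-binding protein, with r of 0.998, 0.997 and 0.998. For *CYP98A9* they were the 3-ketoacyl-CoA synthases *KCS7* and *KCS15* and the defensin-like gene *LCR66*, with r of 0.999, 0.998 and 0.998. For *CYP98A8* they were AT1G76140, a prolyl oligopeptidase family gene, and the prenyltransferase genes *PPT1* and *cPT9*, with r of 0.999, 0.998 and 0.997, and for *TSM1* they were AT2G03850, AT4G00040 (a chalcone and stilbene synthase family gene) and AT1G30020, with r of 0.997, 0.995 and 0.995. For *UGT79B6* the closest were AT3G09970, AT1G80620 and AT5G12410, with r of 0.989, 0.986 and 0.986. Pearson's r takes no account of the size of the differences. AT1G76140 ran only from 17.01 to 23.15 FPKM over the 6 libraries and AT3G09970 from 19.23 to 21.46 FPKM, while *LCR66* ran from 0.671 to 82.6 FPKM. None of these 15 genes passed the test with all libraries in limma.

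The tapetum markers shared the high value in Col-0 A with the phenolamide genes, but not all of them shared the difference between *ice1-2* and Col-0 B and C. Their summed level was 4785 to 6525 FPKM in *ice1-2*. In Col-0 A it was 12270 FPKM, and in Col-0 B and C it was 4096 and 4196 FPKM. The median of Col-0 A over the mean of Col-0 B and C was 16.4, without 1 marker that was at 0 in both of the latter. Other markers, *A9* among them, were close to 0 in Col-0 B and C, which makes their ratios large. *ATA7*, a lipid-transfer-like gene of the tapetum, had 140.4, 231 and 248 FPKM in *ice1-2* A, B and C and 511, 27.5 and 34.7 FPKM in Col-0 A, B and C, the order of libraries seen in *TSM1*, and was the 1 tapetum marker called without Col-0 A. *ATA20* and *GRP17*, the tapetum markers of highest level and the larger part of the sum, overlapped between *ice1-2* and Col-0 B and C. They were named after their values were seen. *ATA20* had 1911, 2488 and 2735 FPKM in *ice1-2* A, B and C against 4822, 1959 and 2393 FPKM in the Col-0 libraries. The log2 fold change without Col-0 A was 0.12 for *ATA20* and 0.30 for *GRP17* (adjusted p = 0.877 and 0.632 from limma). *EXL4* and *EXL6*, also named after their values were seen, did not overlap between *ice1-2* and Col-0 B and C. Their log2 fold changes without Col-0 A were 0.95 and 0.70 (adjusted p = 0.122 and 0.198 from limma). All 12 tested markers had a log2 fold change above 0 in that fit, where the median of all tested genes was 0.19. Other tapetum markers were high in *ice1-2* B and Col-0 A, and *A9* was at 1.43, 39.7 and 6.78 FPKM in *ice1-2* A, B and C and at 50.2, 0.068 and 0.064 FPKM in Col-0 A, B and C. The summed tapetum regulators, which include the bHLH factors *AMS*, *bHLH89* and *bHLH91*, were at 58.9 to 92.7 FPKM in *ice1-2* and at 140.4, 39.8 and 41.6 FPKM in Col-0 A, B and C. Of the regulators, *TDF1* was listed at 0 in all libraries and *DYT1* in *ice1-2*, where its Col-0 values reached 0.199 FPKM. Of the 14 markers 12 were tested, with a median log2 fold change of 0.33, and 0 passed with all libraries in limma (0 at an unadjusted p under 0.05), while without Col-0 A 1 was higher (*ATA7*, 2.68, adjusted p = 0.00551) and 7 had an unadjusted p under 0.05, with a median of 1.11. Of the 8 regulators 4 were tested, with a median of 0.24, and 0 passed with all libraries (0 at an unadjusted p under 0.05), while without Col-0 A 1 was higher (*bHLH89*, 1.46, adjusted p = 0.0343) and all 4 had an unadjusted p under 0.05, with a median of 0.87. The part of the tapetum genes in the result for the phenolamide genes was not tested.

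**Figure D3:**
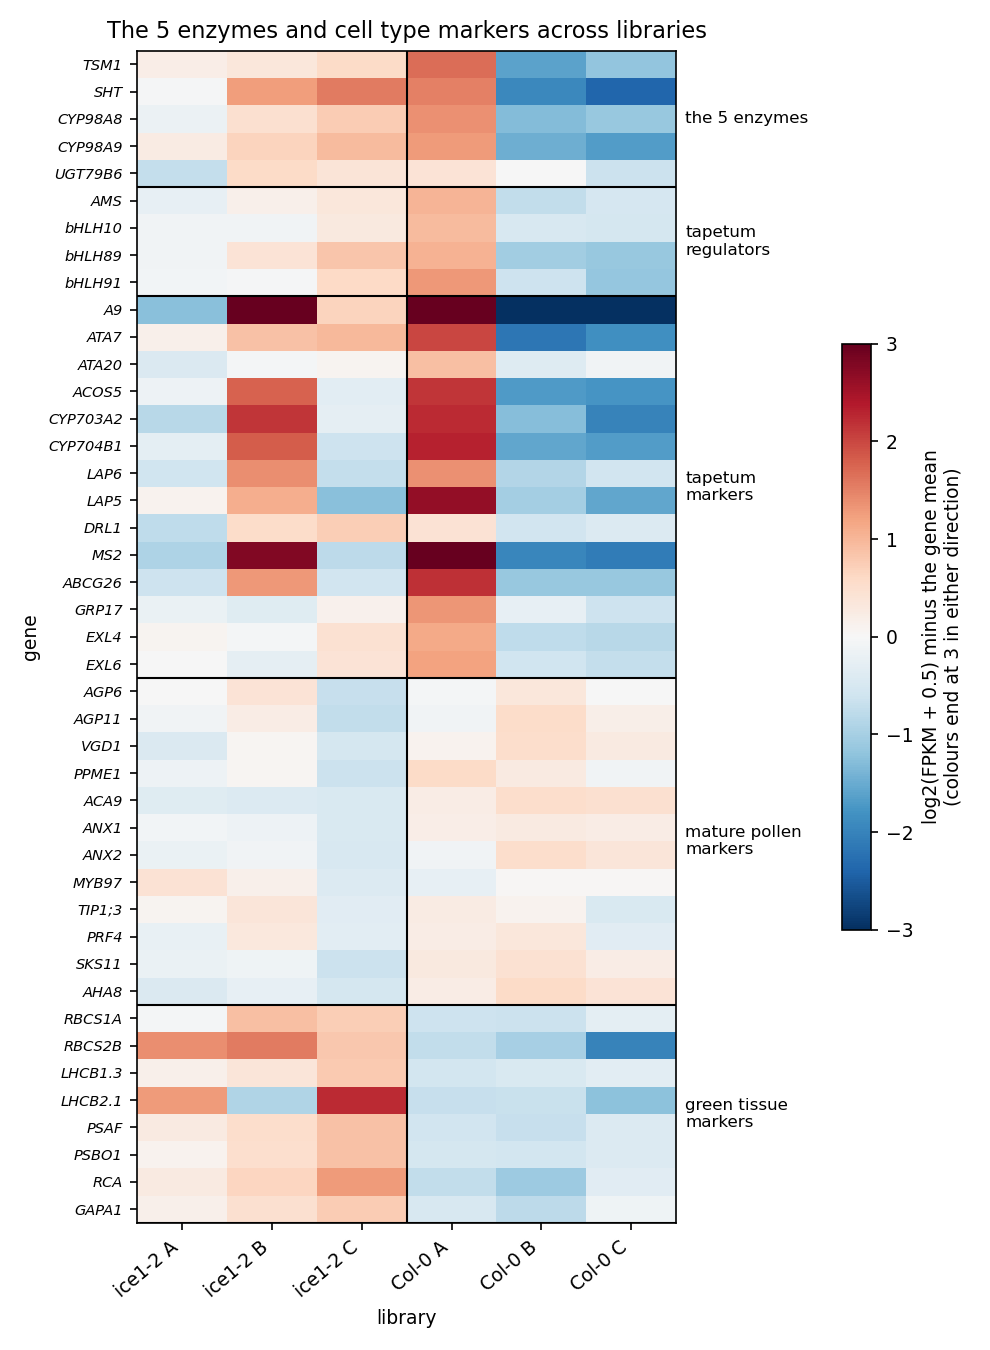
Heat map of log2(FPKM + 0.5) minus each gene's mean over the 6 libraries, with *ice1-2* columns left of Col-0 columns, for the 5 enzymes and the listed markers that reached 2 FPKM in a library. Red is above the gene's mean and blue below it. All 5 enzymes share with the 14 tapetum markers a value in Col-0 A above both Col-0 B and C, by the least for *UGT79B6*, as do 2 of 12 mature pollen markers and 1 of 8 green tissue markers.

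Markers of the other cell types did not set Col-0 A apart. The 12 mature pollen markers summed to 7552 to 12360 FPKM in *ice1-2* and 12670 to 15720 FPKM in Col-0, with Col-0 A below Col-0 B and C in the sum. Of these, 0 passed the test in limma (5 at an unadjusted p under 0.05), and 0 without Col-0 A (3). In 6 of the 12 every *ice1-2* library lay below every Col-0 library, against 27.2% of all tested genes that did not overlap in either direction. The 2 with the largest change were the pumps *ACA9* (log2 fold change -0.82, adjusted p = 0.0647) and *AHA8* (-0.80, adjusted p = 0.104). Green tissue markers summed to 2363 to 3895 FPKM in *ice1-2* and 1393 to 1676 FPKM in Col-0. In 7 of the 8 every *ice1-2* library lay above every Col-0 library, against the same 27.2%. All 8 had an unadjusted p under 0.05 in limma, with all libraries and without Col-0 A, against 21.4% and 20.6% of all tested genes. Of the 8, 2 passed, against 1.89% of all tested genes, *RBCS2B* (log2 fold change 2.498, adjusted p = 0.0254) and *PSAF* (1.12, adjusted p = 0.0468), of which neither did after median-ratio scaling and *RBCS2B* alone of the 8 did without Col-0 A. Their part in the result was not tested.

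Relatives of the 5 enzymes gave no calls. Of 11 genes of the same families, 7 were tested and 0 passed in either direction, with all libraries (2 at an unadjusted p under 0.05 in limma) or without Col-0 A (4 at an unadjusted p under 0.05), against 1.89% and 3.17% of all tested genes that passed in either direction. The median log2 fold change was 0.58, and 0.90 without Col-0 A, against 0.15 and 0.19 over all tested genes. The lignin-pathway methyltransferase *CCOAOMT1* (log2 fold change 1.01, adjusted p = 0.12) and *CCOAOMT7* (0.93, adjusted p = 0.113) had the largest changes. *CCOAMT*, the neighbour of *TSM1*, was at 0.303, 0.508 and 0.416 FPKM in *ice1-2* A, B and C, and at 1.67, 0.120 and 0.112 FPKM in Col-0 A, B and C, with its highest value in the same library as *TSM1* at a level far below it. *HCT*, which makes shikimate esters for lignin, was at 71.8, 64.5 and 131 FPKM in *ice1-2* A, B and C and 58.7, 42.8 and 71.7 FPKM in Col-0 A, B and C, so Col-0 A was in the range of the others. *SDT*, a spermidine acyltransferase of the same family as *SHT*, named after its values were seen, had the split of the phenolamide genes, with 10.6, 16.5 and 22.0 FPKM in *ice1-2* A, B and C against 34.0, 8.26 and 5.69 FPKM in the Col-0 libraries (log2 fold change 0.39, adjusted p = 0.727 from limma, and 1.14 without Col-0 A, adjusted p = 0.0902). Col-0 A was more than 2 times both other Col-0 libraries in 5 of the 11, of which all but *SDT* were under 1 FPKM in Col-0 B and C. *UGT79B9* was listed at no more than 0.058 FPKM in any library.

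The substrates of SHT are hydroxycinnamoyl-CoA, made from phenylalanine by PAL, C4H and 4CL enzymes, and spermidine. Of 11 genes of the first supply 10 were tested, 0 passed with all libraries (2 at an unadjusted p under 0.05 in limma) and 1 was higher without Col-0 A (*PAL2*, log2 fold change 1.299, adjusted p = 0.0498), where 5 had an unadjusted p under 0.05. Their median log2 fold change was 0.44, led by *4CL1* (0.90, adjusted p = 0.119) and *C4H* (0.86, adjusted p = 0.154). Col-0 A was above both other Col-0 libraries in 6 of the 11, and by more than 2 times in 3, *PAL2* among them. *PAL2* had 34.7, 35.5 and 58.2 FPKM in *ice1-2* A, B and C against 42.7, 13.7 and 20.0 FPKM in Col-0 A, B and C. Of the 12 spermidine genes all were tested and 0 passed, with all libraries (2 at an unadjusted p under 0.05 in limma) or without Col-0 A (2). Their median of 0.17 was near that of all genes, and the largest changes were in *SAMDC4* (1.02, adjusted p = 0.099) and *ACL5* (0.87, adjusted p = 0.136). Summed over the spermidine genes, Col-0 A had 1851 FPKM, against 1635 and 1878 FPKM in Col-0 B and C. Most of that sum was *SAMDC1*, with 1244, 1169 and 1414 FPKM in Col-0 A, B and C. Col-0 A was above both other Col-0 libraries in 7 of the 12 genes, and by more than 2 times in 1.

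The genes that build and decorate flavonols had larger log2 fold changes than *UGT79B6*. Of 11 genes, 9 were tested and 2 passed, both higher in *ice1-2*, with a list median of 1.96. Without Col-0 A 8 passed, all higher, with a median of 2.37. Of all tested genes, 1.89% passed with all libraries and 3.17% without Col-0 A. All 9 had an unadjusted p under 0.05 in limma, with all libraries and without Col-0 A, against 21.4% and 20.6% of all tested genes. With library B or C of either genotype left out, without the filter, or with the replicate letter as a block, 0 of the 9 passed. The glycosyltransferase genes *UGT89C1* (log2 fold change 2.05, adjusted p = 0.0321 in limma) and *UGT78D1* (1.34, adjusted p = 0.035), which attach rhamnose to flavonols, passed. *UGT89C1* had 12.2, 22.0 and 14.4 FPKM in *ice1-2* A, B and C and 5.57, 2.69 and 2.56 FPKM in Col-0 A, B and C, with no overlap. In 6 of the 9 tested genes every *ice1-2* library lay above every Col-0 library, against 27.2% of all tested genes that did not overlap in either direction, and this was not so for *UGT79B6*. Col-0 A was above both other Col-0 libraries in 9 of the 11 genes, as it was for *UGT79B6*, and by more than 2 times in 7. The difference between the change of *UGT79B6* and that of these genes was not tested. Of the flavonol regulators 5 of 6 were tested and 0 passed with all libraries (1 at an unadjusted p under 0.05 in limma) or without Col-0 A (2), with *MYB12* (0.88, adjusted p = 0.0729) and *MYB111* (0.85, adjusted p = 0.276) at the largest changes.

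**Figure D4:**
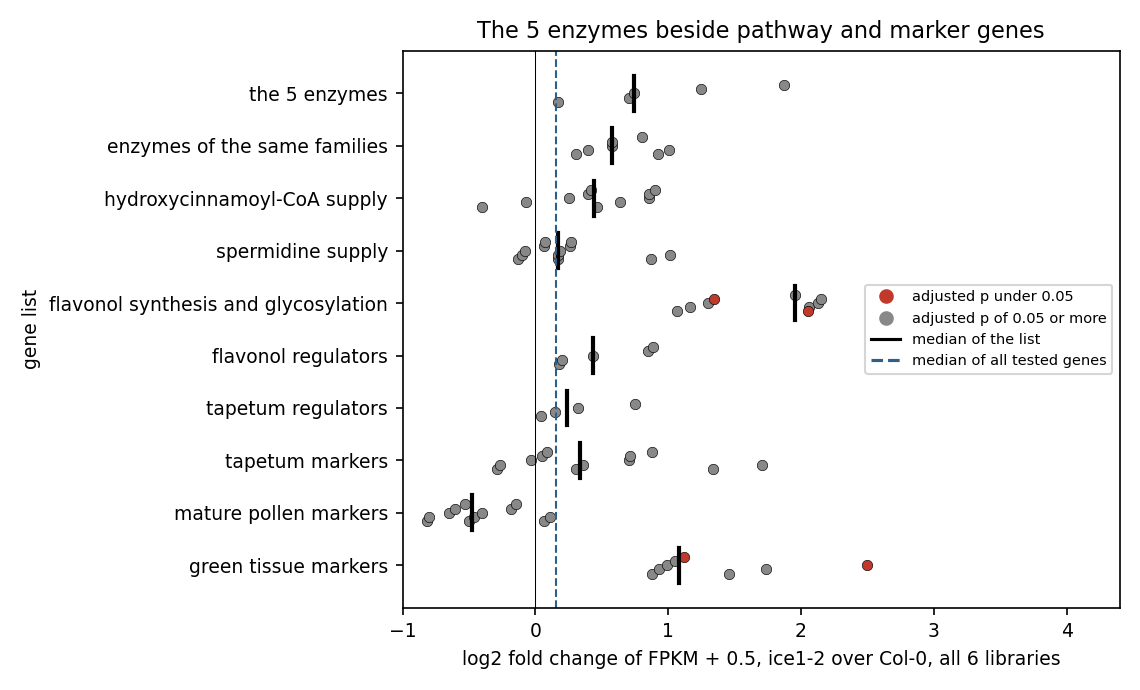
Log2 fold change of FPKM + 0.5, *ice1-2* over Col-0 with all 6 libraries, for each tested gene of the lists, with red for an adjusted p under 0.05, black bars for list medians and a dashed line for the median of all tested genes (0.15). The 5 enzymes run from 0.17 to 1.87 with none passing, while the flavonol synthesis genes have a median of 1.96 and the mature pollen markers one of -0.48.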

How the data were processed

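RNA of anthers was sequenced in 3 libraries per genotype. The authors trimmed reads with Trim Galore, mapped them to TAIR10 with TopHat, assembled transcripts (StringTie and Cufflinks), counted reads per gene with HTSEQ and deposited FPKM values, which were used as they stand. Read counts were not used here. FPKM depends on the other transcripts of a library, so scaling was varied. Genes with at least 1 FPKM in at least 3 libraries were kept (18858), and log2(FPKM + 0.5) was fitted by genotype alone in limma 3.58.1 under R 4.3.3, with a mean-dependent prior variance (trend). Benjamini-Hochberg adjustment ran over all tested genes. A gene was called at an adjusted p under 0.05 and a log2 fold change beyond 1, and list members passed at an adjusted p under 0.05. The fit was also run on simulated data with independent noise for each gene. No simulated library stood apart as Col-0 A did, so that run does not bear on the effect of such a library. Python 3.11.15, pandas 2.3.3, scipy 1.17.1 and biopython 1.88 were used for the rest.

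The genes and lists were chosen with earlier results of these data known. Named genes are the 5 enzymes and *ICE1*, in each list up to 4 per direction that passed or, with none, the 2 of largest change, the closest relative of each enzyme, and the 3 genes most like each enzyme by r. *AMS*, *DYT1*, *TDF1*, *PAL2*, *ATA20*, *GRP17*, *EXL4*, *EXL6*, *SDT* and *SAMDC1* fall outside this rule and were chosen after their values were seen. A listed agmatine acyltransferase was left out because its identifier carries another name in the reference. Coordinates and sequence come from TAIR10.1, a later release than the TAIR10 named for mapping, and the FPKM tables hold no coordinates. Depth was read from steps in low values, of which 35.7% to 59.8% lay within 0.05 of a whole step, so it is rough. Alternatives were pseudocounts of 0.1 and 1, no filter, median-ratio scaling, library quality weights, the replicate letter as a block, and each library left out.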

Additional observations from a re-analysis of the deposited data

How the results depend on the processing

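No fit that kept Col-0 A led to a call of any of the 5 enzymes. Leaving out 1 library in turn gave log2 fold changes of 0.13 to 1.77 for *TSM1*, 1.15 to 3.10 for *SHT*, 0.23 to 1.57 for *CYP98A8*, 0.72 to 2.20 for *CYP98A9* and -0.11 to 0.57 for *UGT79B6*, with 0 to 4 of the 5 called and the upper end without Col-0 A for all but *UGT79B6*. Median-ratio scaling turned *UGT79B6* to -0.0063 (adjusted p = 0.993 from limma). With that scaling and without Col-0 A, chosen after seeing the data, *TSM1* was at 1.54, *SHT* at 2.87 and *CYP98A9* at 1.97, and 3 of the 5 were called. The cause was not tested.

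Over all tested genes 335 were called, against 803 with library quality weights, 163 with median-ratio scaling, 194 with that scaling and Col-0 A left out, 28 without a filter (27825 genes tested), and 17 to 594 with a library left out. With the replicate block 35 were called. Libraries with the same letter had correlations of their deviations from the genotype means of -0.21, 0.05 and 0.12, so the letters were not taken as pairs. Of the listed genes other than the 5, 4 passed, against 16 with weights, 2 with median-ratio scaling, 9 with that scaling and Col-0 A left out, 0 without a filter, 1 with the replicate block and 0 to 12 with a library left out. With 3 libraries per genotype, and 2 of Col-0 where Col-0 A is left out, the intervals of the 5 stay wide, and *ice1-2* A is the shallowest library.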
